A study of Homo sapiens with 6 samples.

Results

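Accessible chromatin was compared between SMARCD2 knockdown and control in NB4 cells treated with all-trans retinoic acid (ATRA). The compared items were all 268 regions in the authors' deposited table for ATRA, out of 591 regions in the series, and no region was left out. NB4 is an established human acute promyelocytic leukaemia line. All 3 libraries were made from 50000 cells grown in 1 µM ATRA, a state the labels call differentiated. There was 1 control library, labelled as control for SMARCD2 expression, and 2 knockdown libraries, each with its own SMARCD2-specific short hairpin RNA, shRNA1 and shRNA2. The hairpins therefore stood in for replicates of the knockdown. The sources used here do not give the vector, the time in ATRA or whether the cells were clonal. With 1 control library, a p-value rests on the spread between the 2 hairpin libraries. No label states that each library had a culture of its own, so that spread may be technical. These are bulk libraries, in which fewer cells with an open site and a site less open in every cell cannot be told apart.

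SMARCD2 is a subunit of the BAF (SWI/SNF) complexes, which use ATP to move or evict nucleosomes and so open chromatin to transcription factors. It is known for a role in granulocyte maturation and in the expression of neutrophil granule genes. ATRA releases the differentiation block imposed by the PML-RARA fusion protein in this leukaemia, and the cells mature towards granulocytes. In ATAC-seq the transposase Tn5 cuts open DNA, so the reads in a region rise with its accessibility. A nearest gene is a neighbour, and accessibility there is not a measurement of its expression.

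Every listed region had an unadjusted p under 0.005 in the authors' own test of this same contrast. The listing therefore used the difference described here, and directions and sizes are given as a description of the listed regions. The 268 regions lay nearest to 261 genes. They held 10456 reads with shRNA1, 11371 with shRNA2 and 5530 in the control. SMARCD2 itself had 0 listed regions. Of 27 myeloid and granulocyte marker genes, 1 (CEBPD) had a listed region. The other 26 were not listed, which says nothing about whether they are accessible.

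A direction needs a scale, and 2 came with the table. On the first, called here the library-size scale, reads are divided by the library sizes behind the authors' log2 fold changes, which were recovered as 17632000 (shRNA1), 17268000 (shRNA2) and 14373000 reads (control). On the second, called here the listed-region scale, the deposited normalized counts are reads multiplied by 0.793 (shRNA1), 0.714 (shRNA2) and 1.83 (control). Those factors were the reciprocals of median-of-ratios size factors computed from the 268 listed regions alone, of which 163 have reads in all 3 libraries, with a largest deviation of 0.0008%. The normalized counts are thus centred on those 163 listed regions. Over all 268 the median ratio on that scale was 1.37, with control reads below 3 set to 3. A ratio of knockdown to control is 2.01 times smaller on the listed-region scale. The ATRA control is the only control library, so no count can be repeated without it.

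Of 261 genes, 201 had a RefSeq promoter window (build GRCh38.p14). The first 250 bases of 3 windows are shown (GPR153, CDC42BPA and PLK2), with GC boxes (GGGCGG, or CCGCCC on the other strand) in capitals. These are 3 of the genes with a well-covered region within 500 bp of, but outside, the gene. Other such windows, not shown, included SOS2 (5 GC boxes), OTUD4 (2) and C3orf80 (1). The regions are in GRCh37.p13 and the table does not say on which side of the gene they lie, so overlap of region and window was not established.
GPR153 (chr1:6261099-6261348, minus strand): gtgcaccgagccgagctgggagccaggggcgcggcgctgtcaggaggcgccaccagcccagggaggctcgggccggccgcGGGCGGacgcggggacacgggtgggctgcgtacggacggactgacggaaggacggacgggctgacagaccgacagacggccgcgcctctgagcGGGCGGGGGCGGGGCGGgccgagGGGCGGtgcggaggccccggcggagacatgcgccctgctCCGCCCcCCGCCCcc
CDC42BPA (chr1:227318493-227318742, minus strand): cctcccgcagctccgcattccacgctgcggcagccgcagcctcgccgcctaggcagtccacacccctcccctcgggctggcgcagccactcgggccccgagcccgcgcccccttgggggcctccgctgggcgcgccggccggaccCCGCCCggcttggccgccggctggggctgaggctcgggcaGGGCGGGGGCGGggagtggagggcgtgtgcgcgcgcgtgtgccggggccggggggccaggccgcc
PLK2 (chr5:58460087-58460336, minus strand): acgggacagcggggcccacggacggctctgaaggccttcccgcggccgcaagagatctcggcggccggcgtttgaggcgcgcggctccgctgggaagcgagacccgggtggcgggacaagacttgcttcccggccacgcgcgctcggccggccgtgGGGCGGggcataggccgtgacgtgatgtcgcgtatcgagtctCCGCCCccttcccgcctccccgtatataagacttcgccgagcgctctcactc
The GPR153 window had 7 matches (80.0% G and C), the CDC42BPA window 3 (82.4%) and the PLK2 window 2 (71.2%). A GC box was found in 42.6% of all 35116 windows of this length. The CCAAT box (CCAAT or ATTGG, in 32.0% of windows), the AP-1 motif (TGACTCA or TGAGTCA, 4.2%) and the E-box (CACGTG, 6.34%) had 0 matches in these 3.

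At least 20 reads in at least 1 library were found in 147 regions. On the library-size scale 110 of them (74.8%) were higher in the knockdown and 37 (25.2%) lower, against 79.1% higher and 20.9% lower among all 268. On the listed-region scale 83 (56.5%) were higher and 64 (43.5%) lower. All 27 regions that changed side were higher on the library-size scale and lower on the listed-region scale. Raw reads gave the split of the library-size scale, with 110 higher and 37 lower. Thus 3 classes of region resulted: 37 lower on every scale, 83 higher on every scale, and 27 whose direction depends on the scale.

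**Figure D1:**
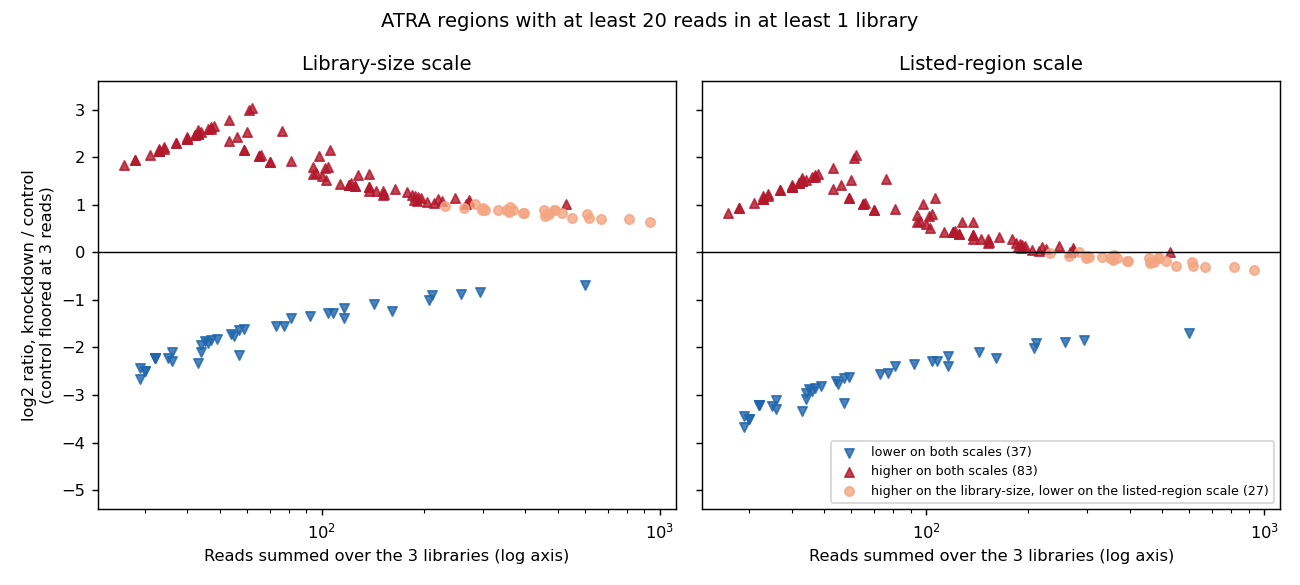
Each point is 1 of the 147 regions with at least 20 reads in at least 1 library: the x axis gives its reads summed over the 3 libraries (log axis) and the y axis the log2 ratio of knockdown to control, with the control floored at 3 reads. Left is the library-size scale and right the listed-region scale (norm_). The 27 regions whose direction differs between scales lie towards the right of each panel, with 232 to 934 reads. Other classes reach there too, up to 599 reads for lower regions and 526 for regions higher on both scales.

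The 37 lower regions had the same direction on every scale. The control exceeded both hairpins in 37 of 37 regions on both scales, by more than the gap between the hairpins. The 95% counting interval lay below 1 for all 37 on both scales. On the library-size scale 0 of all 268 regions had an interval that held 1, and 0 had the control between the hairpins. The factor of 2.01 only moves lower regions further down. Side and interval of the 37 thus followed from the listing. Among all 147, the control was farther from the nearer hairpin than the hairpins were from each other in 121 (82.3%) on the library-size scale and 85 (57.8%) on the listed-region scale. Intervals cover counting error only, and since PCR duplicates may remain they may be too narrow.

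**Figure D2:**
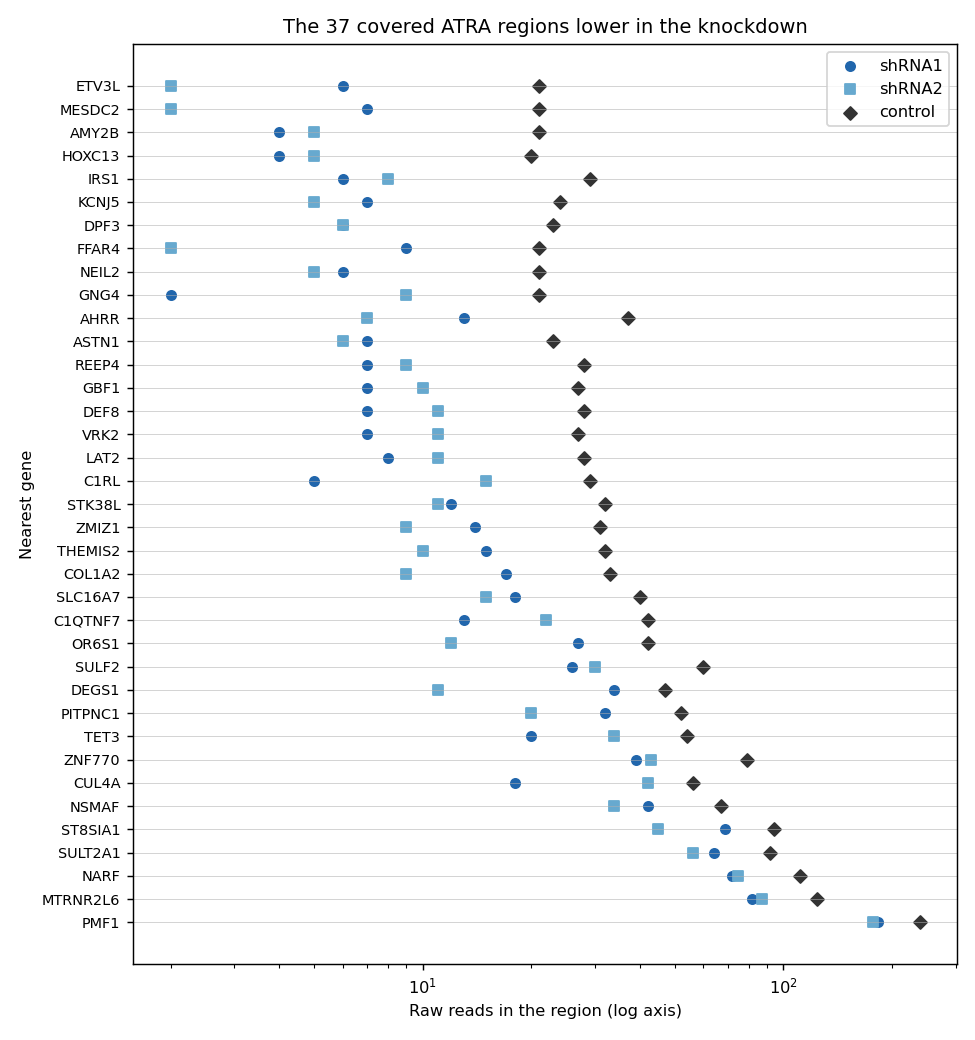
Raw reads (x axis, log axis) of shRNA1, shRNA2 and control in each of the 37 lower regions, ordered by the authors' log2 fold change with the nearest gene on the y axis. The control point lies to the right of both hairpins in every row, from ETV3L (6, 2 and 21 reads) to PMF1 (183, 177 and 239 reads).

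The best-covered lower region lay in PMF1, which codes for a kinetochore protein (chromosome 1, 156186339 to 156186560, GRCh37.p13). It had 183 reads with shRNA1, 177 with shRNA2 and 239 in the control, or 145.06, 126.43 and 437.58 normalized counts. It was 1.61-fold lower on the library-size scale (1.36 to 1.90) and 3.24-fold lower on the listed-region scale (2.74 to 3.82). The hairpins nearly coincided and both lay under the control. A region in MTRNR2L6, a humanin-like gene, had 82, 87 and 124 reads and was 1.78-fold lower (1.40 to 2.26). MTRNR2L6 is similar to mitochondrial sequence, so reads there may be split between near-identical copies and the value is uncertain. A region 5960 bp from NARF, which codes for a protein that binds prelamin A, had 72, 75 and 111 reads and was 1.83-fold lower (1.42 to 2.36).

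Of the other lower regions with more than 40 control reads, 5 are given first. One in ST8SIA1, which makes the ganglioside GD3, had 69, 45 and 94 reads and was 2.00-fold lower (1.51 to 2.65). One in DEGS1, the desaturase that completes ceramide synthesis, had 34, 11 and 47 reads, so shRNA2 was far under shRNA1. One in NSMAF, an adaptor of neutral sphingomyelinase, had 42, 34 and 67 reads. Sulfatase gene SULF2 held a region with 26, 30 and 60 reads, 2.60-fold lower (1.78 to 3.81). A region 1290 bp from SULT2A1, a steroid sulfotransferase gene, had 64, 56 and 92 reads. Apart from DEGS1 and ST8SIA1, the hairpins differed by no more than counting error.

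Lower regions also lay near regulators of chromatin and transcription. One 506 bp from TET3, a DNA demethylase gene, had 20, 34 and 54 reads and was 2.43-fold lower (1.63 to 3.61). A region in ZNF770, a zinc finger gene, had 39, 43 and 79 reads and was 2.34-fold lower (1.70 to 3.23). In AHRR, the repressor of the aryl hydrocarbon receptor, the reads were 13, 7 and 37, 4.49-fold lower (2.54 to 8.17). The BAF subunit gene DPF3 had 6, 6 and 23 reads, with normalized counts of 4.76, 4.29 and 42.11. Near HOXC13, a homeobox gene, the reads were 4, 5 and 20, and near ETV3L, an ETS family gene, they were 6, 2 and 21. In each of these 6 regions both hairpins lay under the control.

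Of the remaining lower regions, 6 are given by library. A region 3853 bp from IRS1, the insulin receptor substrate, had 6, 8 and 29 reads and was 5.03-fold lower (2.57 to 10.3). LAT2, an adaptor of immune receptors in myeloid cells, held a region with 8, 11 and 28 reads, 3.58-fold lower (1.93 to 6.78). GBF1, an exchange factor of Arf GTPases at the Golgi, had 7, 10 and 27 reads. CUL4A, a ubiquitin ligase scaffold, had 18, 42 and 56 reads. The fatty acid receptor gene FFAR4 had 9, 2 and 21 reads, and the G protein subunit gene GNG4 had 2, 9 and 21, so shRNA2 was the lower hairpin at FFAR4 and shRNA1 at GNG4, within counting error. The other lower regions lay at AMY2B, MESDC2, KCNJ5, NEIL2, ASTN1, REEP4, DEF8, VRK2, C1RL, STK38L, ZMIZ1, THEMIS2, COL1A2, SLC16A7, C1QTNF7, OR6S1 and PITPNC1.

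The 83 regions higher on every scale had a median of 9 control reads and of 39 (shRNA1) and 40 (shRNA2) knockdown reads. The interval lay above 1 on the listed-region scale for 32 of the 83. Those 32 had at most 9 control reads and a median width of 154 bp. They reached 20 reads in a library only through the knockdown, and were listed by p in this same contrast. Their intervals, given below for some, describe the listing and are no separate evidence. All 40 regions with at least 10 control reads had an interval that held 1 on that scale. Thus no region with 10 or more control reads had an interval above 1 on both scales.

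The higher region with the largest authors' log2 fold change (7.35) lay 97 bp from GPR153, an orphan receptor gene whose promoter window is shown above (chromosome 1, 6321133 to 6321247, GRCh37.p13). It had 28 reads with shRNA1, 15 with shRNA2 and 0 in the control. Its ratio to a floor of 3 control reads was 5.90 on the library-size scale and 2.94 on the listed-region scale. The exact 95% lower limits, which also allow for the counting error of the knockdown reads, were 4.60 and 2.29. PIP4K2A, which codes for a phosphoinositide kinase, had 12, 22 and 0 reads, and ZFP69, a zinc finger gene, had 7, 21 and 0. STAT4, a transcription factor of cytokine signalling, had 20, 8 and 0. OTUD7A, a deubiquitinase gene, had 5, 21 and 0 reads. A region of PITPNC1 had 11, 22 and 0. The hairpins differed beyond counting error in 3 of these 6 regions (OTUD7A, ZFP69 and STAT4), and the control was at 0 throughout.

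With at least 1 control read, the highest ratio was in BPGM, which makes the haemoglobin effector bisphosphoglycerate, at 15, 24 and 1 reads. It was 16.1-fold higher, but with 1 control read the interval ran from 2.72 to 650. ROBO3, an axon guidance receptor gene, had 31, 27 and 3 reads and was 7.96-fold higher (2.59 to 39.7), or 3.97-fold on the listed-region scale (1.29 to 19.8). DCPS, the scavenger of messenger RNA caps, had 42, 29 and 5 reads and was 5.85-fold higher (2.39 to 18.6). MAML2, a coactivator of Notch signalling, and CYFIP1, a regulator of actin assembly, had 23, 13 and 1 reads and 26, 10 and 1 reads.

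Of the 32 regions above 1 on both scales, the one with the most reads (106 in all) lay 363 bp from SOS2, a guanine nucleotide exchange factor for RAS. It had 42, 55 and 9 reads, or 33.29, 39.28 and 16.48 normalized counts. It was 4.44-fold higher on the library-size scale (2.24 to 10.0) and 2.21-fold on the listed-region scale (1.12 to 4.98). MUL1, a mitochondrial ubiquitin ligase gene, had 39, 50 and 9 reads and was 4.07-fold higher (2.05 to 9.20). On the listed-region scale MUL1 was 2.03-fold higher, with an interval from 1.02 to 4.58. Both hairpins were above the control at SOS2 and MUL1 on both scales.

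Regions with more control reads were higher on both scales by less. CDC42BPA, a kinase that acts on actin and myosin, had a region 18 bp away with 59, 54 and 15 reads, 3.10-fold higher (1.80 to 5.73) and 1.55-fold on the listed-region scale (0.899 to 2.85). PLK2, a stress-induced polo-like kinase, had 96, 89 and 35 reads 223 bp away, 2.18-fold higher (1.51 to 3.22) and 1.08-fold on the listed-region scale (0.753 to 1.60). UHRF1, which maintains DNA methylation, had 67, 93 and 31 reads. A region 8896 bp from RORA, a nuclear receptor gene, had 93, 96 and 37 reads. TMSB10, an actin-binding thymosin gene, had 203, 234 and 89 reads, but its normalized counts of 160.92, 167.14 and 162.95 placed the control between the hairpins.

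The 27 regions whose direction depends on the scale were wider and better read at the median than the other covered regions. Their median width was 675 bp (348 to 1090 bp) against 301 bp for all 147, and all 27 lay inside a gene, against 83.0% of the 147. Reads ranged from 40 to 195 in the control. The authors' log2 fold changes were between 0.64 and 1.01, a range that the common factor of 2.01 between the scales fixes from above. A change this small needs many reads to reach p under 0.005. The read number is thus tied to the listing and is no separate trait of these regions. On the listed-region scale the interval held 1 for 24 of the 27 and lay below 1 for 3, in PABPN1, MYLIP and SEL1L. Both hairpins were under the control for 19 on that scale, with the control between them for 8.

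**Figure D3:**
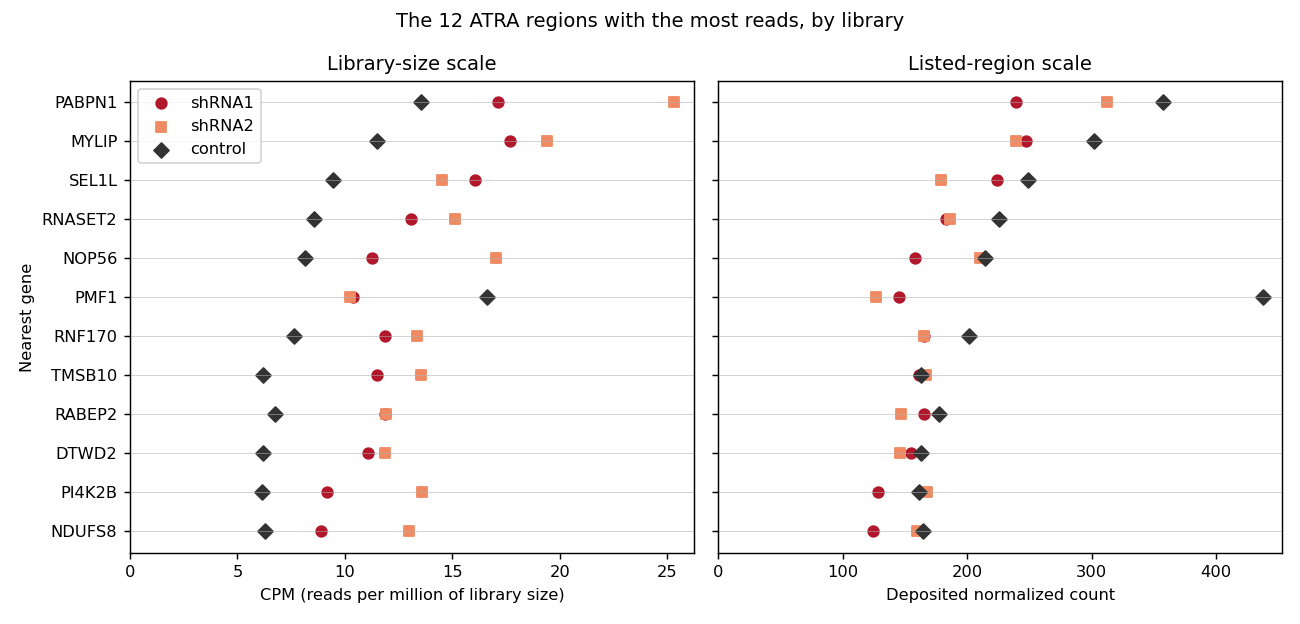
Values in each library for the 12 regions with the most reads: CPM, that is reads scaled to the recovered library size (left), and deposited normalized counts (right), with the nearest gene on the y axis. The control lies left of both hairpins for 11 of the 12 on the left, all but PMF1, while on the right it lies between or above the hairpins for all 12.

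The most-read region lay in PABPN1, the nuclear poly(A)-binding protein gene (chromosome 14, 23790093 to 23790767, GRCh37.p13). It had 302 reads with shRNA1, 437 with shRNA2 and 195 in the control, or 239.39, 312.14 and 357.02 normalized counts. The raw reads put the control lowest and the normalized counts put it highest. It was 1.56-fold higher on the library-size scale (1.33 to 1.84), and the ratio was 0.778 on the listed-region scale (0.663 to 0.915). MYLIP, the ubiquitin ligase that degrades the LDL receptor, had 312, 335 and 165 reads but 247.32, 239.28 and 302.10 normalized counts. SEL1L, the adaptor of the HRD1 ligase in ER-associated degradation, had 283, 251 and 136 reads but 224.33, 179.28 and 249.00 normalized counts. In both, the order of control and knockdown was reversed by the scale.

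Further regions of this class had the same pattern, with the control lowest in raw reads. NOP56, a box C/D small nucleolar ribonucleoprotein gene, had 199, 294 and 117 reads, a 1.74-fold ratio (1.42 to 2.14), and 0.865 on the listed-region scale (0.706 to 1.07). U2AF1, the 3′ splice site factor gene, had 152, 148 and 67 reads. NDUFS8, a subunit of respiratory complex I, had 157, 224 and 90 reads. ATG5, needed to form autophagosomes, had 195, 179 and 88 reads, and VPS37A, an ESCRT-I subunit gene, had 178, 191 and 89. JUND, an AP-1 subunit gene, had 115, 128 and 54 reads with 91.16, 91.43 and 98.87 normalized counts. FZR1, an activator of the anaphase-promoting complex, had 149, 138 and 64, and HJURP, the chaperone of centromeric CENP-A, had 127, 164 and 67. At PAK1, a kinase downstream of Rac and CDC42, the reads were 82, 110 and 40 with 65.00, 78.57 and 73.24 normalized counts. The remaining members were RNASET2, RNF170, RABEP2, XXYLT1, TP53INP2, SCAI, GCDH, DTWD2, PRDM2, PI4K2B, POC1A, PBX4, DHDDS, RHBDD1 and SNX30.

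Width differed between the classes, with overlapping ranges (348 to 1090 bp for the 27, 90 to 782 bp for the 83 and 79 to 727 bp for the 37). Of the 54 covered regions of 400 bp or more, 48 were higher and 6 lower on the library-size scale, and 23 higher and 31 lower on the listed-region scale. Of the 33 under 150 bp, 17 were higher and 16 lower on both scales. In the 60 of intermediate width, 45 were higher and 15 lower, or 43 and 17 on the listed-region scale. Width and reads moved together here, and the listing by p ties read number to the size of the change. The part of width and reads in the split was not tested.

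Function was described with 18 gene families defined by symbol patterns, which held 122 of the 261 genes. Enrichment was not tested, since regions outside the listing were not analysed here. Family counts are read against all 268 regions, of which 79.1% were higher on the library-size scale and 69.0% on the listed-region scale. DNA-binding transcription factors, also the largest family in RefSeq (1283 genes), had 20 regions. Of these 15 were higher and 5 lower on the library-size scale, near the share of all regions, and 11 and 9 on the listed-region scale. Their median authors' log2 fold change was 1.14 against 2.35 for all 268 regions. Higher members were KLF15 (46, 45 and 11 reads), E2F1 (39, 24 and 7) and HIVEP3 (35, 49 and 10), besides RORA, and JUND on the library-size scale only. KLF15 regulates metabolic genes, and E2F1 drives entry into the cell cycle. The pattern also took in TWISTNB, an RNA polymerase I subunit gene, and TP53INP2, an autophagy gene, which are not such factors.

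Chromatin and histone modifier genes had 5 regions, 3 lower and 2 higher on both scales. Over all listed regions on the library-size scale no other family, as its symbol pattern defined it, had more lower than higher regions. Among covered regions this family had 0 higher and 2 lower, G protein-coupled receptors and regulators 1 and 2, and integrins and matrix 0 and 1. The lower regions lay at TET3, DPF3 and KDM2B, a histone demethylase gene with 4, 2 and 15 reads. The higher regions lay 7542 bp from the BAF subunit gene BCL7A (12, 8 and 0 reads) and in H2AFY, which codes for macroH2A (18, 11 and 1). With so few regions, 1 more would level the count. The symbol pattern left out UHRF1, described above, which was covered and higher on both scales. It also placed the histone methyltransferase genes PRDM7 and PRDM2 with the transcription factors. PRDM7 was covered and higher on both scales, and PRDM2 was higher on the library-size scale only. The larger number of lower regions in this family therefore depends on its symbol pattern.

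Families of protein turnover and traffic included regions that changed side with the scale. Their library-size shares were near that of all regions. Ubiquitin and proteolysis genes had 10 regions, 8 higher and 2 lower on the library-size scale but 5 and 5 on the listed-region scale. Higher on both scales were USP19 (43, 61 and 16 reads) and OTUD4 (28, 13 and 2), both deubiquitinase genes. The symbol pattern left out other genes of this kind, among them MUL1, described above and higher on both scales. Membrane traffic genes had 11 regions, 8 higher and 3 lower against 5 and 6. STX2, a plasma membrane syntaxin, had 16, 33 and 4 reads, and RAB3A, a GTPase of regulated exocytosis, had 22, 23 and 2. RNA binding and processing genes had 8 regions, all 8 higher on the library-size scale and 6 on the listed-region scale, where NOP56 and PABPN1 were lower. The others included MRPL37 (83, 41 and 21 reads), a mitochondrial ribosomal protein gene, and RPL37A (73, 87 and 29), a cytosolic one. METTL7B was taken in by its symbol alone.

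Families in which no region changed side had mostly thin control coverage. Phosphatase genes had 6 regions, all 6 higher, 4 of them with 0 control reads. PTPRD, a receptor tyrosine phosphatase gene, had 24, 16 and 2. Axon guidance and synaptic adhesion genes had 9 regions in 7 genes, 7 higher and 2 lower, 6 with 0 control reads. Ion channel genes had 8 regions in 7 genes, 6 higher and 2 lower, 5 with 0 control reads. The sodium channel gene SCN9A had 18, 24 and 2. G protein-coupled receptor and regulator genes had 9 regions, 7 higher and 2 lower, 6 with 0 control reads. The 3 covered ones were 1 higher (GPR153) and 2 lower (GNG4 and OR6S1). The receptor genes FFAR4, with a covered lower region, and TSHR, with a higher region, were left out by the symbol pattern. Immune receptor and cytokine genes had 5 regions, 3 higher and 2 lower. That pattern left out LAT2, an immune receptor adaptor gene with a lower region. Retinoic acid and lipid hormone genes had 4 regions, 3 higher and 1 lower. The lower region and a higher region of these lay at PITPNC1, a phosphatidylinositol transfer protein gene taken in by its symbol.

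**Figure D4:**
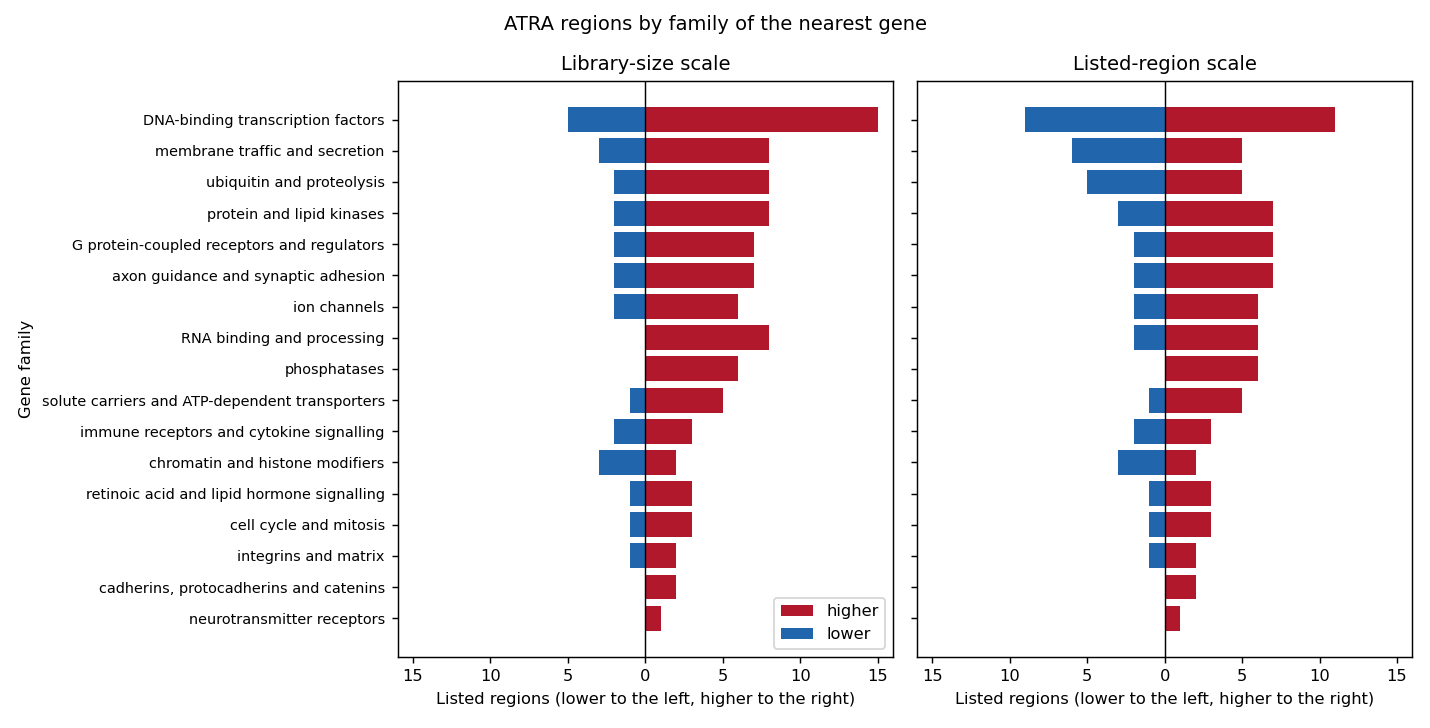
Number of listed regions higher (red, to the right) and lower (blue, to the left) in the knockdown for each family of nearest genes reported here, on the library-size scale (left) and the listed-region scale (right). Transcription factors move from 15 higher and 5 lower to 11 and 9, while chromatin modifiers stay at 2 higher and 3 lower.

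In 7 genes 2 regions were listed, and in 5 of them the regions went in opposite directions. PITPNC1, a phosphatidylinositol transfer protein gene, had 11, 22 and 0 reads in one region and 32, 20 and 52 in another, 79294 bp apart. KCNJ5, a potassium channel gene, had 7, 5 and 24 reads in a region 6462 bp away and 6, 13 and 0 inside the gene, 20841 bp apart. CD247, which codes for the zeta chain of T cell receptors, had 4, 4 and 19 against 6, 13 and 0, separated by 13119 bp. KALRN had 10, 17 and 0 against 5, 1 and 15. DLG2, a synaptic scaffold gene, had 10, 10 and 0 against 0, 3 and 16, with 216545 bp between them. Without shRNA2 the log2 ratio of the lower DLG2 region (0.5 reads added) moved from -3.32 to -5.34. Both regions were higher in the nucleoporin gene POM121 (106, 122 and 44 reads, and 14, 16 and 1) and in the netrin receptor gene DCC (14, 10 and 0, and 10, 10 and 0). A nearest gene therefore did not have 1 direction in these 5 cases.

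The hairpins agreed in side at every covered region on the library-size scale but not always in size. On that scale their 95% counting interval excluded equal levels in 37 of 147 regions, with shRNA1 higher in 11 and shRNA2 in 26. This comparison was not made on the listed-region scale, where the factors of the hairpins differ. Among the 121 regions under 20 reads the tilt was the other way, with shRNA1 higher in 9 and shRNA2 in 3. SLC17A7, a glutamate transporter gene, had 27, 79 and 16 reads 1752 bp away, so its higher level rested mainly on shRNA2. ARL6IP6 (32, 12 and 2 reads) rested mainly on shRNA1. Among the 37 lower regions the hairpins differed beyond counting error in 5, DEGS1, CUL4A, OR6S1, ST8SIA1 and C1RL (5, 15 and 29 reads). Because both hairpins were compared with 1 control, their shared side is not independent evidence.

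**Figure D5:**
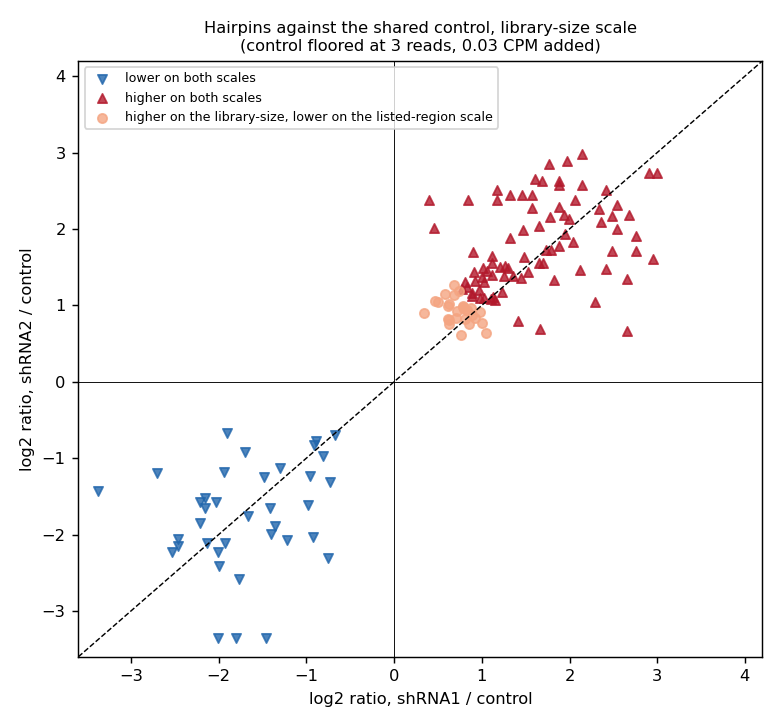
Each point is 1 of the 147 covered regions, with the log2 ratio of shRNA1 to control on the x axis and of shRNA2 to control on the y axis (library-size scale, control floored at 3 reads, 0.03 CPM added). The dashed line marks equal ratios. All 147 points lie at the lower left (37) or the upper right (110), with the 27 regions whose direction differs between scales nearest the origin on the right.

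The remaining 121 regions had under 20 reads in every library. On both scales 102 were higher and 19 lower. Of the 102, 95 had 0 control reads and the other 7 had 1. Regions with 0 control reads numbered 101 in all, each with at least 19 knockdown reads summed over both hairpins. On the listed-region scale the exact lower limit was above 1 for 86 of them. With 0 control reads this limit depends on the summed knockdown reads alone, and the listing used this same difference. These limits are therefore no evidence apart from the listing. CEBPD, a granulocytic transcription factor gene, had 12, 9 and 0 reads. Its ratio to the floor was 2.88 on the library-size scale and 1.44 on the other, with exact 95% lower limits of 2.14 and 1.07. SEMA3A, a guidance ligand gene, had 0, 6 and 16 reads in a region 204 bp away, 6.48-fold lower (2.41 to 20.2). With 0.5 reads added its log2 ratio was -2.52, but -1.61 without shRNA1 and -5.34 without shRNA2, so its size differed between the hairpins.

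At identical coordinates, 2 regions were also listed in undifferentiated cells in DMSO. EFNA5, an ephrin ligand gene, had 8, 14 and 0 reads in ATRA and 22, 14 and 2 in DMSO. CDH13, the T-cadherin gene, had 9, 10 and 0 in ATRA and 13, 7 and 0 in DMSO. The knockdown was above the control in both treatments, and a difference between treatments was not tested.

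As a description of the listing, edgeR's quasi-likelihood test was run on the reads at both scales, with Benjamini-Hochberg adjustment across the table. At the library-size scale all 258 regions that passed its low-count filter had an adjusted p below 0.05 (100%), 202 of them higher (78.3%) and 56 lower (21.7%). At the listed-region scale 148 of 257 did (57.6%), with 91 higher (35.4%) and 57 lower (22.2%). DESeq2 with its own size factors, which equal those behind the normalized counts, called 13 of 268 (4.85%), all 13 lower, with an adjusted p given for 200. Of the 268, 96 had an unadjusted p below 0.05. DESeq2 at the library-size scale called 0 (0%), but it gave an adjusted p for 50 regions only, the smallest 0.0974, and 130 had an unadjusted p below 0.05. Because the table had been selected on the p of this contrast, none of these calls is independent evidence.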

How the data were processed

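ATAC-seq of NB4 cells in ATRA was analysed from 1 control and 2 knockdown libraries. The tools edgeR, MACS2, Picard 2.5.0, STAR and bcl2fastq and the build GRCh37.p13 are named, per the submitters' processing notes. Their roles, the peak settings and duplicate handling are not stated. The authors deposited raw read counts per region and library. The authors also deposited normalized values (a signal without unit), log2 fold changes and log2 CPM, an F statistic (a score) and an unadjusted p-value per region. The largest p was 0.00498 and the largest distance to a gene 9992 bp, so the table was already filtered at 0.005 and 10 kb.

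Library sizes were recovered by least squares from the deposited log2 fold changes and log2 CPM, with a largest deviation of 0.00173 in log2 fold change. Ratios are summed knockdown reads over control reads, scaled, with 95% exact binomial (Clopper-Pearson) intervals that cover counting error only. The floor was 3 control reads. Tests used edgeR 4.0.16 and DESeq2 1.42.0 in R 4.3.3. The low-count filter of 10 reads was used with edgeR and not with DESeq2. Only the edgeR test at the library-size scale was tried on simulated data. DESeq2 gave NA for 68 adjusted p-values with its own size factors, where a local dispersion trend replaced the parametric one, and for 218 at the library-size scale. These were left as NA. For the 2 controls the titles were followed, since the description given for the one in DMSO names ATRA.

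The regions, gene families and tests were chosen with earlier results of these data known. Regions were named by rule: the 12 with the most reads, the 10 largest and 10 smallest log2 fold changes among regions with 20 reads in a library, those whose direction depends on the scale, the 5 largest hairpin differences per direction, genes with 2 regions or regions shared with DMSO, regions within 500 bp outside a gene, and covered members of families. Others, among them NARF, MTRNR2L6, ST8SIA1, NSMAF, SULF2, SULT2A1, LAT2, MUL1, UHRF1, CEBPD, BCL7A, H2AFY and KDM2B, were named after their values were seen. Alternatives were other scales, tools, count minimums, added reads and leaving out each hairpin. Some regions and 1 gene family, which the counts include, are not reported here.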

Additional observations from a re-analysis of the deposited data

How the results depend on the processing

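At the library-size scale edgeR called 258 regions, against 148 at the listed-region scale, 154 with TMM factors from the listed regions and 268 without a count filter. DESeq2 called 13 with its own size factors, with a local dispersion trend and 68 NA, and 0 at the library-size scale, with 218 NA. The cause of the gap between the tools was not tested. Covered lower regions numbered 37 at the library-size scale and 64 at the listed-region scale. With a minimum of 10 reads there were 212 higher and 56 lower regions, with 50 reads 62 and 11, and with 20 reads summed over the libraries 197 and 52. Leaving out either hairpin left the counts at 212 and 56 for all regions and at 110 and 37 for covered ones. edgeR cannot be run then, since no residual degree of freedom is left.

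The listed-region scale divides every ratio by the same factor, and the 27 regions named for turning direction under it are among the 114 named. Their log2 ratio (0.5 reads added) there was PABPN1 -0.36, MYLIP -0.32, SEL1L -0.31, RNF170 -0.29, RNASET2 -0.29, VPS37A -0.24, NOP56 -0.21, NDUFS8 -0.21, ATG5 -0.20, XXYLT1 -0.19, RABEP2 -0.19, TP53INP2 -0.18, HJURP -0.17, SCAI -0.15, U2AF1 -0.13, FZR1 -0.13, GCDH -0.13, JUND -0.12, DTWD2 -0.12, PRDM2 -0.12, PI4K2B -0.12, POC1A -0.11, PBX4 -0.086, DHDDS -0.078, RHBDD1 -0.059, PAK1 -0.032 and SNX30 -0.0021. Another 74 moved beyond the hairpins' spread in size but not direction, and 13 did not. Without scaling 50 moved, and with 2 reads added 45. Without shRNA1 0 moved and without shRNA2 2 (SEMA3A and a region of DLG2). No paired analysis was possible because the control had 1 library, so the groups share fewer than 2 replicate numbers. Depth limits the higher regions, of which 101 of 212 had 0 control reads.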

Other observations

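The listed regions of cells in DMSO carry the same form of normalization. Their normalized counts were reads multiplied by 0.885 (shRNA1), 0.826 (shRNA2) and 1.20 (control), which are reciprocals of median-of-ratios size factors from the 323 regions listed there, 202 of them with reads in all 3 libraries. The deviations lay between -0.00086% and 0.00078%. Normalized counts of DMSO and ATRA were therefore centred on different sets of regions.

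The strand column of the ATRA table matched the RefSeq strand of the nearest gene for 200 of the 201 genes found by symbol, so it gives the strand of the gene and not that of the reads.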
